A study of Mus musculus with 5 samples.

Results

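Fatty acids are burned in a pair of organelles, and 60 genes for this work were followed among the 12621 genes measured in mesenchymal stem cells of mice with and without TSG-6. The 60 were taken by symbol: peroxins (Pex genes), acyl-CoA dehydrogenases and oxidases, carnitine palmitoyltransferases, hydroxyacyl-CoA dehydrogenases, enoyl-CoA hydratase and isomerases, thiolases, thioesterases (Acot genes), the electron transfer flavoprotein and its dehydrogenase, dienoyl-CoA reductases and the ABC transporters of subfamily D. The rule reads symbols alone. A level of at least 1 in at least 2 libraries was reached by 59 of them, and these were tested. Pex5l, a relative of the import receptor gene Pex5 known from neurons, was the exception, with normalised counts of 0.188, 2.19 and 0.717 in knockout libraries, against 0.122 and 0.207 in wild-type libraries. A further 8 family members (Acox2, Eci3, Cpt1b, Acot3, Acot5, Acot10, Acot11 and Acot12) were not analysed here.

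The study compared adherent stromal progenitors, which can form bone, fat and cartilage, that were TSG-6 knockout (KO, 3 libraries, named C1, C2 and SE) with wild-type cells (WT, 2 libraries, named C1 and SE). TSG-6 is a secreted hyaluronan-binding protein encoded by Tnfaip6. All samples carry the strain label Balb/c (C.129S6). The study describes 2 biological replicates for each genotype, while the table holds 3 KO columns. Age, sex, passage, treatment, the deleted exon and the meaning of the suffixes are not labelled, nor is it said which columns stem from different mice. The 5 tested genes of the Y chromosome had a median log2 fold change of -4.22, KO over WT. Whether the genotypes also differ in sex was not tested. The p-values below rest on the variation among 5 libraries, which may be technical. Values are normalised counts, that is, reads of a gene after the authors' scaling for library size.

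Mitochondria oxidise most long-chain and shorter fatty acids, in a spiral of dehydrogenation, hydration, a further dehydrogenation and thiolytic cleavage. The carnitine shuttle carries the long-chain ones across the inner membrane. Peroxisomes take very-long-chain, branched and dicarboxylic fatty acids, shorten them with an oxidase that makes hydrogen peroxide, and hand the products on. Several of the enzymes and the peroxin gene Pex11a are textbook targets of PPAR nuclear receptors, and PPAR gamma is the regulator of fat cell formation, a fate open to mesenchymal stem cells.

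Libraries held 13605555 to 26658725 reads in KO and 17986301 to 25978244 reads in WT. Tnfaip6 itself had 1.65, 2.38 and 1.36 in KO C1, C2 and SE, against 6.04 and 3.21 in WT C1 and SE. Its groups did not overlap, but the difference was not called (limma, log2 fold change -1.13, standard error 0.37, adjusted p = 0.0578). Of 12484 genes tested, 17.2% were called higher and 17.1% lower in KO at an adjusted p under 0.05. Stromal markers were read in every library, with sums over 8 genes of 1674 to 2887 in KO and 2256.5 to 2585 in WT, while Thy1 and Lepr of that list were not analysed here. Itgb1 made up much of these sums, at 1035 to 1431 in KO and 1047 to 1335 in WT, and 3 of the 8 were called lower in KO: Nt5e (0.358 to 0.946 in KO, 77.4 to 121 in WT), Cd44 (28.6 to 40.5 in KO, 325 to 385 in WT) and Ly6a (17.3 to 48.4 in KO, 284 to 412 in WT). The other 5 were not called. Of these, Pdgfrb (240 to 860 in KO, 49.0 to 145 in WT) and Vcam1 (166 to 269 in KO, 92.8 to 135 in WT) lay above WT in every KO library. Summed markers of fat cells were 4392 to 10590 in KO and 51.1 to 79.2 in WT, highest in KO C2, with 8 of 8 tested genes higher. Lpl made up most of these sums (3657 to 8665 in KO, 41.2 to 60.9 in WT). Summed smooth muscle markers were 3097 to 6604 in KO and 49.2 to 65.3 in WT (4 of 4 tested genes higher). Acta2 made up most of them (2971 to 6456 in KO, 47.4 to 64.5 in WT), while Tagln had 4.09 to 8.61 in KO. Lep, Retn and Myh11 of these lists were not analysed here. Summed leukocyte markers were 38.8 to 46.8 in KO and 3.11 to 5.19 in WT, over 3 genes of 8, of which Lyz2 (24.4 to 34.2 in KO, 0 to 0.162 in WT) and Csf1r (3.73 to 9.50 in KO, 0.0405 to 0.518 in WT) were called higher. The epithelial markers Krt18 and Krt19, 2 of 2 tested, were called lower (sum 2.44 to 5.69 in KO, 22.5 to 44.6 in WT). Vwf was the endothelial marker analysed, of 6, and was not called. The 5 hepatocyte markers were not analysed here. In such bulk libraries, fewer cells of a type and less RNA per cell cannot be told apart, and the part of these cell type markers in the results below was not tested.

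Peroxisomal and fatty acid oxidation genes that differed between the genotypes were almost all higher in KO. Of 59 tested, 19 rose, 1 fell and 39 were not called. The share called in either direction, 33.9%, lay at the 34.3% of all tested genes, so the number of calls is not particular to these genes. Their direction was uneven, with 32.2% higher against 17.2% of all genes, and 1.69% lower against 17.1% of all genes. The median log2 fold change over the 59 was 0.53, beside -0.09 over all tested genes, and 46 of the 59 had a positive value. In the role groups below, of 3 to 10 tested genes, the share called ran from 0% (receptor recycling) to 66.7% (Pex11 genes). KO libraries all lay above both WT libraries for 31 genes (52.5%, against 28.0% of all tested genes) and below both for 4 (6.78%, against 30.7%). Summed over the 60 genes, normalised counts made up 0.480%, 0.538% and 0.440% of the column total in KO C1, C2 and SE, against 0.359% and 0.326% in WT C1 and SE. Without single libraries the number called higher lay between 11 (without WT SE) and 24 (without KO SE), and was 13 without KO C2 and 13 without WT C1. The number called lower was 0 in each of these fits but that without KO SE, where it was 1.

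**Figure D1:**
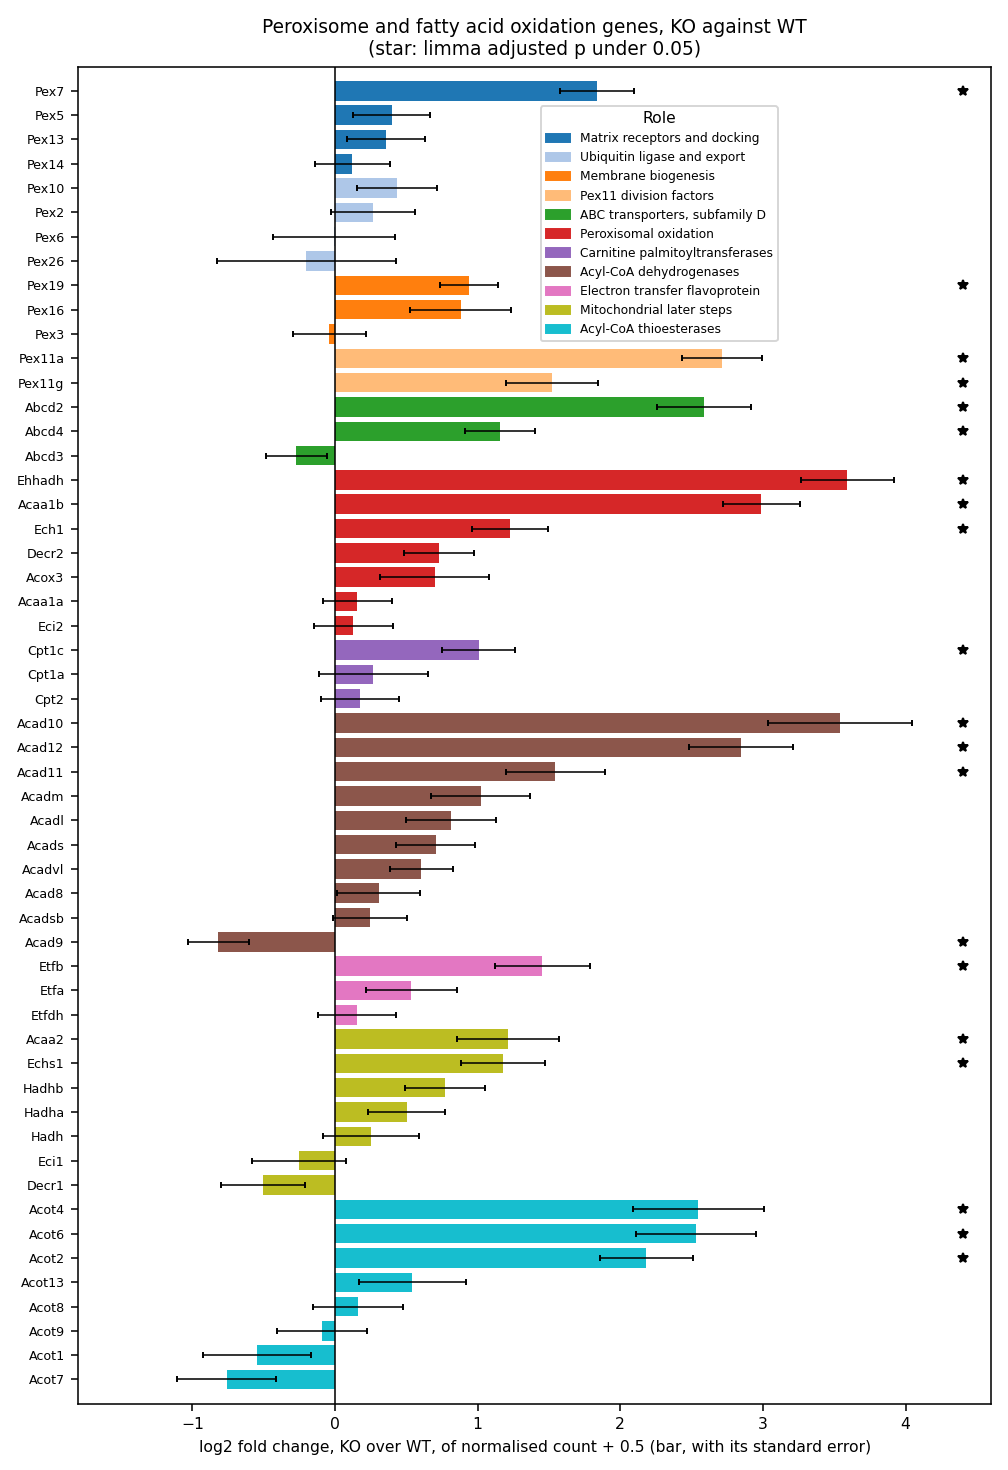
Bars give the log2 fold change of the normalised count plus 0.5, KO over WT, for 54 of the 59 tested genes grouped by role, with the standard error from limma (n = 3 KO and 2 WT libraries); stars mark an adjusted p under 0.05. Stars stand beside 19 bars to the right of 0 and beside 1 bar to the left, that of Acad9.

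Promoters are shown for 5 of the genes that rose by over 6-fold, Ehhadh, Acaa1b, Acad10, Acad12 and Pex11a. Abcd2, Acot4 and Acot6 also rose by over 6-fold, and their promoters are not shown. Whether any of these genes are regulated together was not tested. The promoters of Acaa1a and Hadhb are shown because they belong to partner genes described below. Each window runs from 250 bases before to 50 bases after the transcription start in RefSeq (GRCm38.p6), in the sense of the gene. A window was found for 45 of the 60 genes. In the neighbours Acad10 (chr5:121660461-121660760, minus strand) and Acad12 (chr5:121618889-121619188, minus strand), capitals mark a match, of 10 letters, to the palindromic textbook motif of NRF1, a regulator of mitochondrial genes.
Acad10: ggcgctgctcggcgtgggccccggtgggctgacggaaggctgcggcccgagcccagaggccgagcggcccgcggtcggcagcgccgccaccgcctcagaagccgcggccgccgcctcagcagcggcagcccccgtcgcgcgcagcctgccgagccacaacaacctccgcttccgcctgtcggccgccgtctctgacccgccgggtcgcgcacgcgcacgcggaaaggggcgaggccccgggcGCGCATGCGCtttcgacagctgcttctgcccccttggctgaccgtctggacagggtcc
Acad12: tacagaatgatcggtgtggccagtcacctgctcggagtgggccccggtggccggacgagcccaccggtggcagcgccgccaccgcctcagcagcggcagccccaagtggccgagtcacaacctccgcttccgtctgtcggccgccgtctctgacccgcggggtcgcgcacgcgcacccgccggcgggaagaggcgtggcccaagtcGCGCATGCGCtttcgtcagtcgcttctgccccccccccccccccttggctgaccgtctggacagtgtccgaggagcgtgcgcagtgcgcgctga
This motif lay at position -8 in Acad10 and -44 in Acad12, counted with the start as 0. It stood in 0.971% of all 32851 promoter windows and in 3 of the 45, the other being Etfdh, which was not called. Aligned over 345 columns, the windows of Acad10 and Acad12 shared 216 bases. In the peroxisomal thiolase genes Acaa1b (chr9:119157044-119157343, minus strand) and Acaa1a (chr9:119341044-119341343, plus strand), and in Ehhadh (chr16:21787785-21788084, minus strand), capitals mark CCAAT on either strand.
Acaa1b: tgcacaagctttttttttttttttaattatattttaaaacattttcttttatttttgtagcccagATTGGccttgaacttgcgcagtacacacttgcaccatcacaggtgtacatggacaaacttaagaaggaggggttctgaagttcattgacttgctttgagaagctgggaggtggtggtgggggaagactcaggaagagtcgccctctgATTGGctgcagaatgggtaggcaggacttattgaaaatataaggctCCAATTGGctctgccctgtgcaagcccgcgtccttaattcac
Acaa1a: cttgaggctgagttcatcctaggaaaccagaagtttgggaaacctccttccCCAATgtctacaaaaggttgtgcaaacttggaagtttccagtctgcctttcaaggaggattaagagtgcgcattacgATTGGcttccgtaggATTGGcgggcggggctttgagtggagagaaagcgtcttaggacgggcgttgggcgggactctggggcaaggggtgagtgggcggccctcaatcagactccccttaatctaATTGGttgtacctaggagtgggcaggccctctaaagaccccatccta
Ehhadh: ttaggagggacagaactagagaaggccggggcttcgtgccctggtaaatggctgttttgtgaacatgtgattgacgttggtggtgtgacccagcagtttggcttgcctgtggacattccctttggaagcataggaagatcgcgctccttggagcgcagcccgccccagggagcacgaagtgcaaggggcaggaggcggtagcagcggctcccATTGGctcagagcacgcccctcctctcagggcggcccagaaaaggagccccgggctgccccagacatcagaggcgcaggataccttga
CCAAT occurred 4 times in each thiolase window (in Acaa1b, the last 2 overlap on opposite strands) and 1 time in that of Ehhadh. It is common, in 37.4% of all windows and in 20 of the 45. In Pex11a (chr7:79743082-79743381, minus strand) and in Hadhb (chr5:30155003-30155302, plus strand), capitals mark the GC box GGGCGG on either strand.
Pex11a: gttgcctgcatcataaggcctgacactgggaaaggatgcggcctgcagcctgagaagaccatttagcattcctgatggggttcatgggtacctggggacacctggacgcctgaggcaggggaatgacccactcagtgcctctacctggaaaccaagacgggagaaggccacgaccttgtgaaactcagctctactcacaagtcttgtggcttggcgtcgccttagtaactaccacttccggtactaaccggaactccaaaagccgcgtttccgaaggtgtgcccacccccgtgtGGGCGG
Hadhb: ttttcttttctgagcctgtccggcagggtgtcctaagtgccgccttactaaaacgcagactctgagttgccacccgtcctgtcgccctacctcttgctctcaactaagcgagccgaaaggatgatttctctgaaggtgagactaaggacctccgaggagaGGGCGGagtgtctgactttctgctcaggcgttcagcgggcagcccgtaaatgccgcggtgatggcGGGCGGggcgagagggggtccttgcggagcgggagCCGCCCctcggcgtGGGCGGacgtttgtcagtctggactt
The GC box was present in 34 of the 45 windows (75.6%), against 35.7% of all windows, which include those of genes not tested here. It was in 9 of the 14 windows of genes called higher. The direct repeat AGGTCANAGGTCA, the textbook form of a PPAR element (both strands searched, as for every motif), was in 0 of the 45 windows and in 0.0396% of all windows. Its repeated unit AGGTCA was in 7 of the 45 (Acadm, Acadvl, Acot4, Cpt1a, Cpt1c, Echs1 and Pex11g) and in 16.3% of all windows. TATAAA was in 5 of the 45 and in 13.6% of all windows. A match says only that these letters stand in the window, and a missing match that they do not.

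Among the peroxins, the proteins that build peroxisomes, 4 of 16 tested rose and none of the 16 fell (median log2 fold change 0.31). The share called, 25%, was below the 34.3% of all tested genes. Peroxisomal enzymes are imported folded, by receptors that read a signal at either end of the protein. Pex7 encodes the receptor for the N-terminal signal, which thiolase carries (ENSMUSG00000020003, chromosome 10, 19853900 to 19907689, minus strand, GRCm38). Its normalised counts were 78.6, 72.4 and 66.7 in KO C1, C2 and SE, against 24.2 and 16.4 in WT C1 and SE. Every KO library was above both WT libraries, and the gene rose 3.58-fold (limma, log2 fold change 1.84, standard error 0.26, adjusted p = 0.00282). Pex5, the receptor for the C-terminal signal that most matrix enzymes carry, had 87.6, 104 and 111 in KO, against 60.6 and 95.05 in WT. The groups of Pex5 overlapped, since WT SE lay above KO C1, and it was not called (adjusted p = 0.296). Pex13, which encodes a docking protein of the membrane, had 119, 129 and 90.6 in KO, against 106 and 71.3 in WT, and was not called. Pex14, its partner in docking, had 37.0, 41.7 and 28.8 in KO, against 33.3 and 31.8 in WT, also with overlap.

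Of 6 genes for recycling the receptors, 0 were called by limma, 0 by edgeR and 0 by DESeq2, and 0 had an unadjusted limma p under 0.05. Pex2, which encodes a subunit of the ubiquitin ligase of the membrane, had 121, 107 and 81.0 in KO, against 106 and 67.1 in WT. Pex10, another subunit of that ligase, had 5.74, 6.43 and 5.30 in KO, against 4.30 and 4.04 in WT, and is the gene of this group with groups that did not overlap. Pex6, which encodes an ATPase that helps to pull the receptor out, had 39.2, 54.2 and 74.7 in KO, against 36.0 and 81.7 in WT, where the suffix and not the genotype ordered the libraries.

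Of the 3 genes for inserting membrane proteins, Pex19 rose. Pex19 encodes the carrier of newly made membrane proteins, and had 156, 182 and 157 in KO, against 88.0 and 83.7 in WT. The groups did not overlap, and the rise was 1.93-fold (log2 fold change 0.94, standard error 0.20, limma adjusted p = 0.0144). The call was lost without KO C2, without WT C1 and without WT SE, and with fold changes centred on each chromosome (adjusted p from 9.20e-04 to 0.0996 over the alternatives). Pex16, a membrane receptor of that route, had 41.1, 52.5 and 29.2 in KO, against 27.0 and 16.9 in WT, which did not overlap but were not called (adjusted p = 0.0985). Pex3, the docking site of Pex19, had 56.1, 45.0 and 44.6 in KO, against 58.3 and 42.2 in WT.

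The Pex11 genes, whose products elongate peroxisomes before they divide, gave calls for Pex11a and Pex11g. Pex11a (ENSMUSG00000030545, chromosome 7, 79735957 to 79743131, minus strand) had 66.3, 69.2 and 51.5 in KO C1, C2 and SE, against 10.7 and 7.56 in WT C1 and SE. It rose 6.82-fold (limma, log2 fold change 2.71, standard error 0.28, adjusted p = 8.51e-04), was called under 18 of 18 alternatives, and kept a 5.82-fold to 8.24-fold rise without single libraries. Pex11g had 7.81, 9.16 and 6.74 in KO, against 3.00 and 1.92 in WT, and rose 3.21-fold (adjusted p = 0.0130), a call lost without WT SE. An annotated transcript of unknown kind, Gm44775, covers 41.1% of the Pex11g exons on the opposite strand. Per kilobase of exon, the mean level of Pex11a was 19.6 in KO and 2.87 in WT.

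Abcd2 rose most among the ABC transporters that bring fatty acids into peroxisomes. It encodes a carrier of very-long-chain and polyunsaturated acyl-CoA (ENSMUSG00000055782, chromosome 15, 91145871 to 91191799, minus strand), with 32.3, 48.5 and 47.2 in KO, against 8.23 and 5.23 in WT. The rise was 6.34-fold (log2 fold change 2.59, standard error 0.33, limma adjusted p = 0.00190) and was called under 18 of 18 alternatives. Abcd3, a carrier of branched and dicarboxylic acyl-CoA, had 89.2, 102 and 114 in KO, against 120 and 124 in WT, without overlap, below WT (adjusted p = 0.369), although its log2 fold change of -0.27 became 0.05 with chromosome centring. Abcd3 was the most abundant of the family per kilobase of exon in either genotype, at 15.4 in KO and 18.5 in WT. Abcd4, whose product is not peroxisomal but a lysosomal cobalamin transporter, had 37.7, 43.1 and 34.5 in KO, against 17.1 and 16.7 in WT, and rose 2.27-fold (adjusted p = 0.0130). The call for Abcd4 was lost without KO C2, without WT C1 and without WT SE, and with chromosome centring, where the log2 fold change of 1.16 became 0.56.

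**Figure D2:**
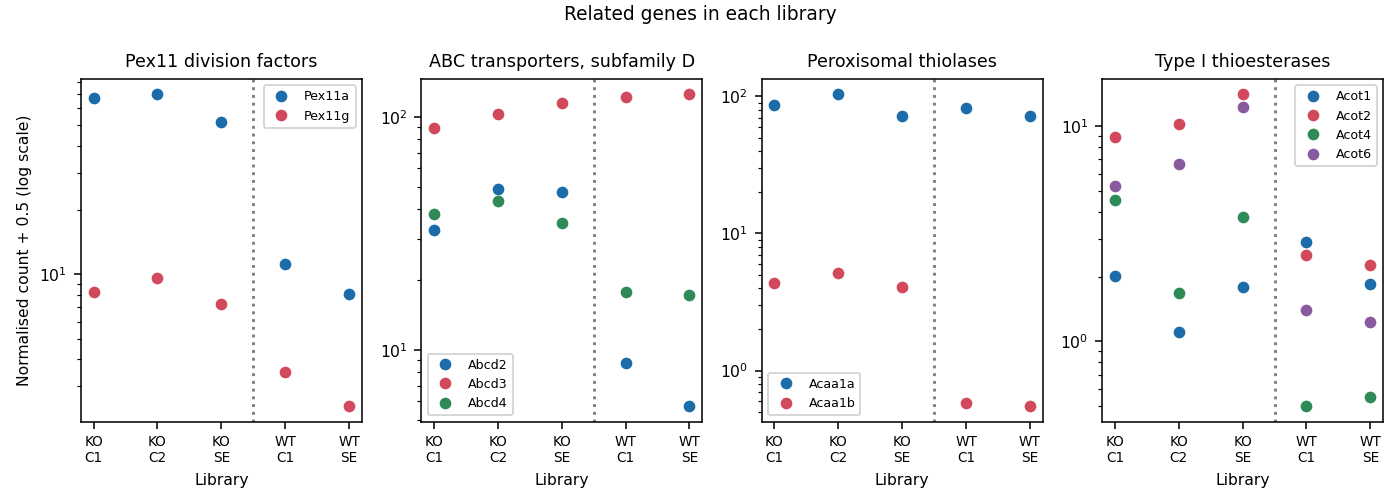
Points give the normalised count plus 0.5 (log scale) of related genes in each of the 3 KO and 2 WT libraries. Pex11a, Pex11g and Abcd2 are higher in each KO library than in either WT library, and Acaa1a overlaps between the genotypes while Acaa1b is higher in each KO library.

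Inside the peroxisome, Ehhadh, Acaa1b and Ech1 rose, and the remaining 5 of the 8 tested had positive fold changes without a call (median 0.71 over the 8). The share called, 37.5%, was near the 34.3% of all tested genes. Ehhadh encodes the bifunctional enzyme of the hydration and dehydrogenation steps (ENSMUSG00000022853, chromosome 16, 21761287 to 21787807, minus strand). It had 8.93, 5.64 and 7.45 in KO, against 0.243 and 0.0518 in WT, from 443 reads in KO and 7 in WT. KO read rates were 45.1-fold those of WT (95% counting interval 21.7 to 113), and the log2 fold change was 3.59 (standard error 0.33, limma adjusted p = 4.91e-04). The fold of means depended on WT C1, which held 6 of the WT reads, and lay between 30.2 and 142 without single libraries. Acaa1b, the thiolase copy known from rodent liver, had 3.86, 4.62 and 3.58 in KO, against 0.0811 and 0.0518 in WT, from 254 reads in KO and 3 in WT (rate ratio 60.4, interval 20.4 to 295, adjusted p = 4.68e-04). Acaa1a, the abundant copy, also on chromosome 9, had 85.5, 103 and 71.4 in KO, against 82.2 and 71.6 in WT, and was not called (adjusted p = 0.657). Transcripts of these copies share sequence: 24.4% of the 75-base windows of Acaa1b also occur in Acaa1a, so reads can be split between them. The log2 ratio of Acaa1b to Acaa1a was -4.30, -4.33 and -4.14 in KO, against -7.15 and -7.03 in WT, so the minor copy stayed far below the major one in every library, by less in KO.

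Ech1, an isomerase for unsaturated fatty acids that works in peroxisomes and mitochondria, rose 2.33-fold at a high level. Its normalised counts were 373, 393 and 286 in KO, against 178 and 123 in WT (log2 fold change 1.23, standard error 0.27, limma adjusted p = 0.0144), and the call was lost without KO C2 and without WT SE. Acox3, an oxidase of branched acyl-CoA, was higher in SE than in C within each genotype, with 19.75, 27.4 and 39.6 in KO C1, C2 and SE, against 13.3 and 21.4 in WT C1 and SE (adjusted p = 0.204). Decr2, the peroxisomal dienoyl-CoA reductase, had 51.3, 63.6 and 47.2 in KO, against 34.7 and 29.7 in WT (adjusted p = 0.0608). Eci2, an enoyl-CoA isomerase, was 1.08-fold of WT and not called.

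Of the 3 carnitine palmitoyltransferase genes, Cpt1c rose and Cpt1a and Cpt2 were not called. Cpt1c, a brain-type relative of carnitine palmitoyltransferase found in the endoplasmic reticulum and of little catalytic activity, had 73.5, 60.3 and 92.2 in KO, against 36.5 and 36.8 in WT. It rose 2.06-fold (log2 fold change 1.01, standard error 0.26, limma adjusted p = 0.0248), a call lost without KO C1, without WT C1 and without WT SE. Cpt1a, the gatekeeping enzyme of the outer membrane, had 108, 116 and 226 in KO, against 95.5 and 145 in WT. Both SE libraries lay above all C libraries for Cpt1a, and the genotype difference was not called (adjusted p = 0.628). Cpt2, which releases the acyl group inside, had 59.5, 70.6 and 45.1 in KO, against 56.1 and 45.9 in WT, with overlap.

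Acyl-CoA dehydrogenases catalyse the opening step of the mitochondrial spiral. Every KO library was above both WT libraries for 8 of 10 genes, against 28.0% of all tested genes. Of the 10, 3 were called higher and Acad9 was called lower. The share called, 40%, was near the 34.3% of all tested genes. The called rises were in the less studied Acad10, Acad12 and Acad11. Acad10 (ENSMUSG00000029456, chromosome 5, 121621026 to 121660514, minus strand) had 13.97, 23.0 and 33.8 in KO, against 0.811 and 2.38 in WT. It rose 14.8-fold (log2 fold change 3.54, standard error 0.50, limma adjusted p = 0.00286), or between 9.89-fold without WT C1 and 29.1-fold without WT SE. Acad12, its neighbour, had 9.17, 13.2 and 14.05 in KO, against 0.851 and 1.71 in WT, and rose 9.48-fold (adjusted p = 0.00188), or 7.10-fold without WT C1 and 14.3-fold without WT SE. Of the 75-base windows of Acad10, 11.4% also occur in Acad12. Both genes were called under 18 of 18 alternatives, in a stretch of chromosome where the 50 neighbouring tested genes had a median log2 fold change of -0.54. Acad11 had 22.2, 22.6 and 34.4 in KO, against 6.81 and 10.7 in WT, and rose 3.02-fold (adjusted p = 0.0155), a call lost without WT C1.

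The classical dehydrogenases, named for the chain length they take, had KO above WT in every library and were not called in the main fit. Acadl, the long-chain form, had 334, 404.5 and 233 in KO, against 217 and 148 in WT (adjusted p = 0.0910). Acadm, the medium-chain form, had 201, 297 and 145 in KO, against 120 and 84.8 in WT, a 2.09-fold difference (adjusted p = 0.0629). In KO, C2 was the highest and SE the lowest library for both, and KO C2 also had the highest sum of fat cell markers, 10590. Acad10 and Acad11 were instead highest in KO SE, and a relation of these genes to the markers was not tested. Acadvl, the very-long-chain form, was 1.53-fold and Acads, the short-chain form, 1.64-fold above WT (adjusted p = 0.0767 and 0.0939). Exons of Dvl2 overlap 42.9% of those of Acadvl on the opposite strand, and the sources do not say if reads were assigned by strand. With the suffix as a block all 4 were called higher, and with chromosome centring Acadm, Acadvl and Acads but not Acadl. Quantile normalization called Acadl, Acadm and Acadvl higher, the fit without KO SE called Acadl and Acadm, and DESeq2 called Acadm. Acad8 and Acadsb, enzymes of branched-chain amino acid breakdown, were 1.24-fold and 1.21-fold of WT and not called. Acad9, which is best known as an assembly factor of respiratory complex I, had 50.6, 43.5 and 43.999 in KO, against 81.8 and 81.1 in WT. It fell 1.77-fold (log2 fold change -0.82, standard error 0.21, limma adjusted p = 0.0269). The call was lost in the fits that left out KO C1, KO C2, WT C1 or WT SE as the only library removed. It was also lost with quantile normalization and with chromosome centring (limma adjusted p = 0.123, beside 0.00215 with the suffix as a block).

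**Figure D3:**
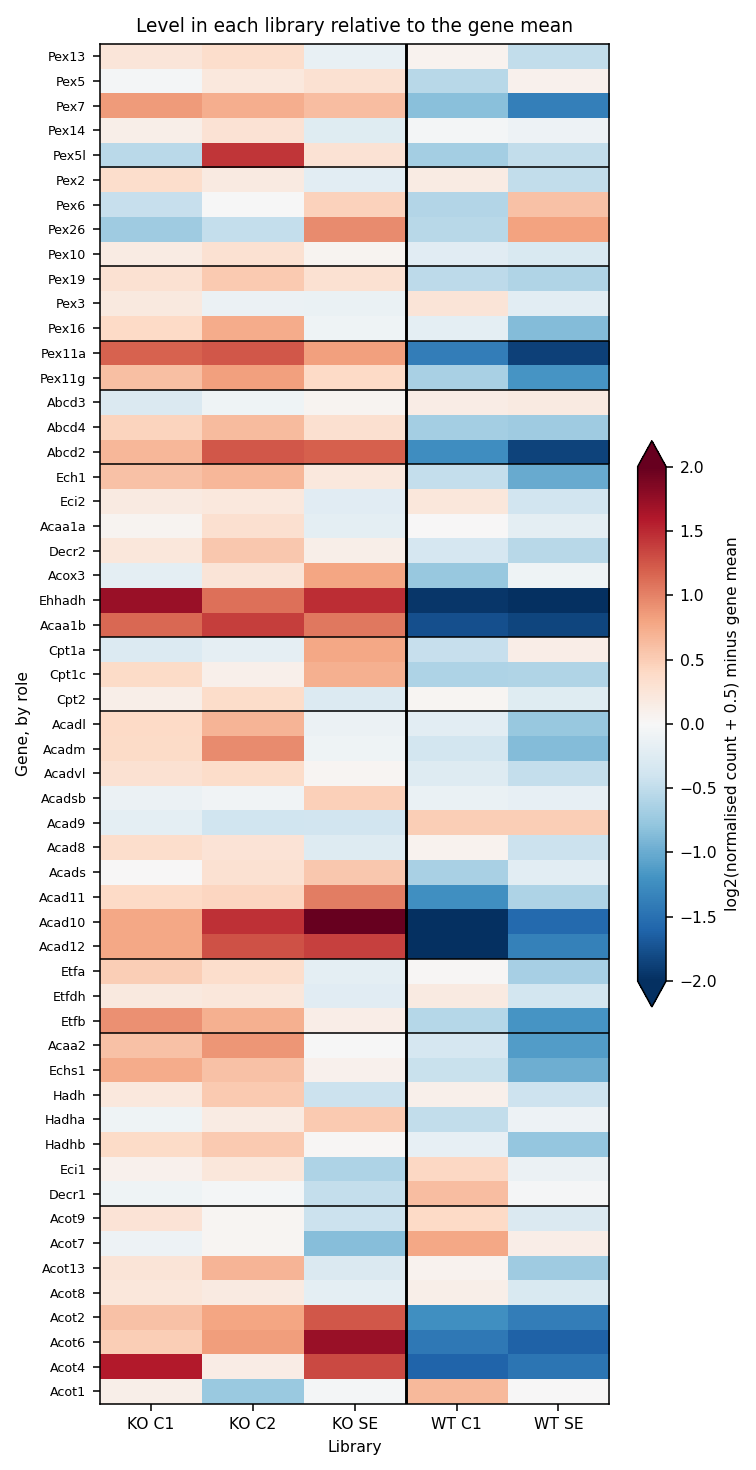
Colours give log2 of the normalised count plus 0.5 minus the mean of the gene over the 5 libraries, for 55 of the 60 genes in rows grouped by role, with the 3 KO libraries left of the 2 WT libraries. The strongest contrasts between KO and WT are in Ehhadh, Acaa1b, Acad10, Acad12, Pex11a, Abcd2 and the thioesterases Acot2, Acot4 and Acot6, while Cpt1a, Pex6 and Pex26 follow the SE suffix.

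Electrons from these dehydrogenases pass to the electron transfer flavoprotein, and of its genes Etfb rose. Etfb, the beta subunit, had 80.7, 70.4 and 46.8 in KO, against 28.8 and 18.6 in WT, and rose 2.78-fold (log2 fold change 1.45, standard error 0.33, limma adjusted p = 0.0171). The call was lost without KO C1, without KO C2 and without WT SE, and another annotated gene on the same strand, Gm45233, shares 53.0% of the Etfb exons. Etfa, the alpha subunit, had 347, 315 and 216 in KO, against 251 and 156 in WT, with overlap between KO SE and WT C1 (adjusted p = 0.239). The log2 ratio of Etfb to Etfa was -2.10, -2.15 and -2.19 in KO, against -3.10 and -3.03 in WT, without overlap. Etfdh, which hands the electrons to ubiquinone, had 90.4, 92.7 and 67.9 in KO, against 90.3 and 61.1 in WT, and followed the suffix.

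Of 7 genes for the later mitochondrial steps, Echs1 and Acaa2 rose (28.6% called, beside 34.3% of all tested genes). Echs1 encodes the short-chain enoyl-CoA hydratase and had 241, 218 and 153 in KO, against 106 and 73.3 in WT, a 2.27-fold rise (log2 fold change 1.18, standard error 0.29, limma adjusted p = 0.0227). Acaa2, the mitochondrial thiolase, had 313, 386 and 207 in KO, against 165 and 96.0 in WT, a 2.31-fold rise (adjusted p = 0.0411). Either group was apart from the other in every library, yet the call for Echs1 was lost without KO C1, KO C2 or WT SE, and that for Acaa2 without any of the libraries but KO SE, without a variance trend and with chromosome centring. Hadha and Hadhb encode the subunits of the mitochondrial trifunctional protein and lie head to head on chromosome 5, so that 228 bases of their promoter windows are the same DNA. Hadhb had 104, 114 and 80.1 in KO, against 70.9 and 46.3 in WT, and Hadha had 88.3, 105 and 135 in KO, against 66.1 and 87.2 in WT. Neither was called (adjusted p = 0.0779 and 0.194), and their log2 ratio, Hadha to Hadhb, was -0.23, -0.11 and 0.75 in KO, against -0.10 and 0.91 in WT, ordered by suffix rather than genotype. Hadh and the isomerase gene Eci1 overlapped between the groups, and Decr1, a reductase for unsaturated fatty acids, had 39.5, 40.5 and 29.7 in KO, against 64.4 and 41.2 in WT (adjusted p = 0.232).

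Acyl-CoA thioesterases, which free fatty acids from coenzyme A, rose in a gene cluster on chromosome 12 that also holds a member which did not. Acot2, a mitochondrial form, had 8.37, 9.72 and 13.5 in KO, against 2.03 and 1.76 in WT, and rose 5.57-fold (log2 fold change 2.18, standard error 0.33, limma adjusted p = 0.00347). Acot6, a peroxisomal form, had 4.75, 6.17 and 11.8 in KO, against 0.892 and 0.725 in WT, and rose 9.38-fold (adjusted p = 0.00519). Acot4, another peroxisomal form, had 163 reads in KO and 1 in WT, with levels of 4.04, 1.17 and 3.30 in KO and of 0 and 0.0518 in WT. Its rate ratio was 116, with a 95% counting interval from 20.6 to 4620, and its call (adjusted p = 0.00707) was lost without WT C1. Acot1, the cytosolic form between Acot2 and Acot4, had 1.505, 0.605 and 1.29 in KO, against 2.39 and 1.35 in WT, with overlap (adjusted p = 0.305). Because 20.5% of the 75-base windows of Acot2 also occur in Acot1, the split of reads between these copies is uncertain. The log2 ratio of Acot2 to Acot1 was 2.15, 3.21 and 2.97 in KO, against -0.19 and 0.29 in WT. Acot7, a cytosolic form abundant in neurons, had 123, 135 and 72.3 in KO, against 225 and 145 in WT, without overlap and without a call (adjusted p = 0.140). Acot9, a mitochondrial form and the most abundant of these by read count, had 220, 187 and 135 in KO, against 238 and 149 in WT, with overlap. Acot8 and Acot13 were not called, at 1.12-fold and 1.46-fold of WT.

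Over the 13 pairs of related or partner genes compared as ratios, 11 had ratios without overlap between KO and WT, each at p = 0.2 (exact permutation test, adjusted p = 0.236). The two-sided p is here 2 times the smaller one-sided p, and in this form 3 against 2 libraries allow no smaller value. By the same exact permutation test, Hadha to Hadhb gave p = 0.4, with overlap.

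Chromosomal surroundings moved with some of these genes. In windows of up to 50 tested neighbours, the median log2 fold change was 0.97 around Pex7, 0.99 around Abcd4, 0.91 to 0.99 around the chromosome 12 thioesterases and 0.81 around Ehhadh. Pex7 (1.84), Acot2 (2.18) and Ehhadh (3.59) had log2 fold changes above those of their windows, Abcd4 (1.16) was close to its own, and Acot1 (-0.55) was below. In contrast, Abcd2 (-0.37), Acaa1b (-0.33), Acad11 (-0.47) and Pex11a (-0.15) rose in windows with a negative median. When fold changes were centred on the median of each chromosome, 23 of the 59 genes were called higher and 0 lower. Over all 12484 tested genes, that fit called 2070 higher and 1617 lower. Of the 20 calls among the 59, 16 remained, those of Abcd4, Acaa2, Acad9 and Pex19 were lost, and 7 were gained, among them Acadm, Acads, Acadvl, Decr2, Hadhb and Pex10.

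**Figure D4:**
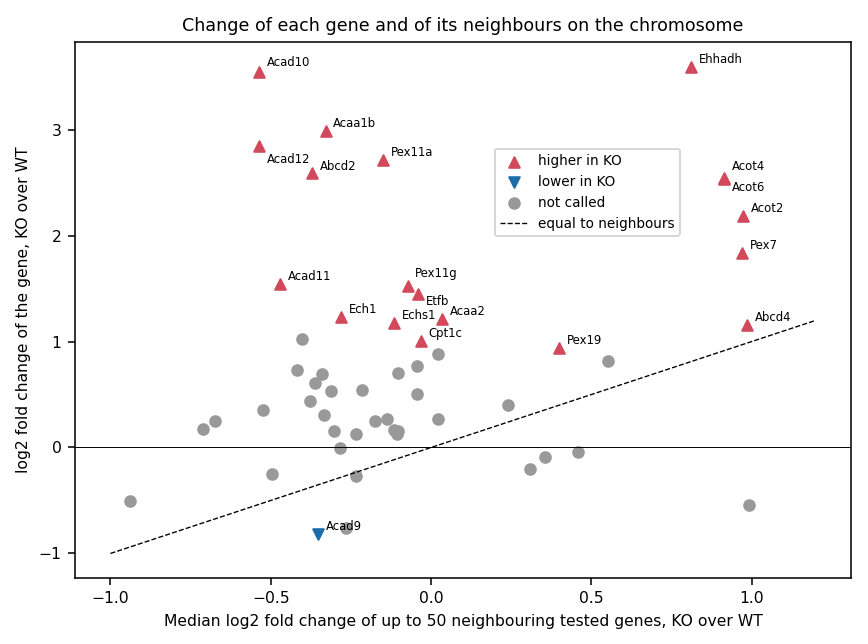
Each point is 1 of 54 tested genes, with the median log2 fold change of up to 50 tested genes around it on the chromosome (horizontal axis) and its own log2 fold change, KO over WT (vertical axis); the dashed line marks equality. Abcd4 lies near the line at 0.99 and 1.16, while Acad10, Acaa1b, Abcd2 and Pex11a lie far above it at negative window medians.

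Some genes were ordered by the suffix of the library names. Both SE libraries lay below all 3 C libraries for 16 of the 59 (27.1%, against 12.6% of all tested genes), and above them for 3 (5.08%, against 16.2%). The 16 included Acaa1a, Acad8, Acot8, Acot9, Acot13, Cpt2, Eci1, Eci2, Etfa, Etfdh, Hadh, Pex2, Pex3, Pex13 and Pex14. This order makes the genotypes overlap, so a call between them is unlikely from the outset. None of the 16 was called without the suffix in the fit. The 3 were Cpt1a, Pex6 and Pex26. Pex26, the membrane anchor of the export ATPase, had 3.57, 4.28 and 12.3 in KO C1, C2 and SE, against 4.01 and 11.1 in WT C1 and SE. SE libraries were also the shallowest of each genotype, at 13605555 reads in KO and 17986301 in WT. With the suffix as a block beside genotype, which left 2 residual degrees of freedom, all 20 calls remained and 16 were added. Calls rose over all 12484 tested genes too, from 2150 to 3530 higher and from 2129 to 4038 lower, so the gain is not particular to these genes. Among the 16 added, Acadl, Acadm, Acads, Acadvl, Acox3, Cpt1a, Decr2, Etfa, Hadha, Hadhb, Pex5 and Pex16 were higher in KO, and Acot7, Decr1 and Eci1 lower. Compared within the suffix, C with C and SE with SE, the fold change had the same direction for 49 of 58 genes (84.5%, against 87.4% of all tested genes). Pex11a was 6.33-fold higher in KO among C libraries and 6.80-fold among SE libraries, Abcd2 was 4.91-fold and 9.03-fold higher, and Ech1 was 2.15-fold and 2.32-fold higher.

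**Figure D5:**
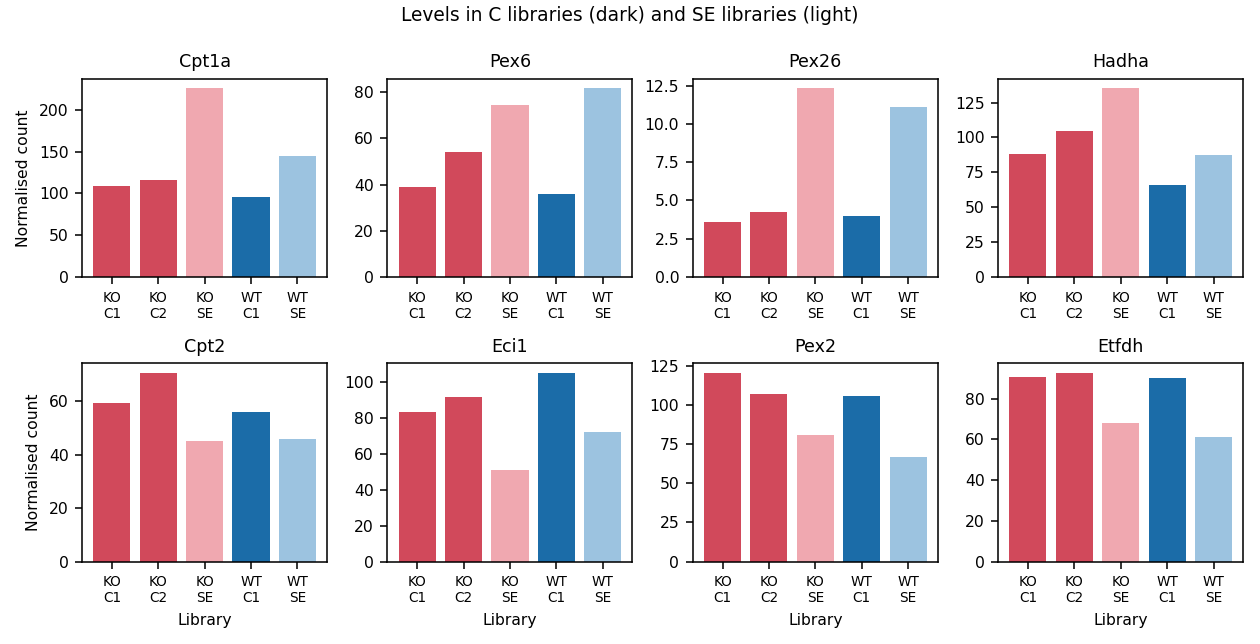
Bars give the normalised count in each library, with C libraries in dark and SE libraries in light colours, KO (red) left of WT (blue). Cpt1a, Pex6 and Pex26 are highest in the SE libraries, and Cpt2, Eci1, Pex2 and Etfdh lowest in them, in both genotypes; Hadha is higher in SE than in C within each genotype.

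Other genes of the pathway, taken from 7 lists of 88 symbols, gave 29 higher and 6 lower of 77 tested (45.5% called, beside 34.3% of all genes, with a median log2 fold change of 0.60). Among other peroxisomal proteins, 11 of 28 rose and 1 fell (42.9% called). Idh1, a source of NADPH in cytosol and peroxisome, had 873, 1139 and 865 in KO, against 142 and 129 in WT (log2 fold change 2.80, limma adjusted p = 3.93e-04). Hacl1, a lyase of alpha-oxidation, had 40.6, 50.7 and 43.2 in KO, against 7.74 and 7.67 in WT, and Gstk1, a glutathione transferase, had 10.3, 7.72 and 6.88 in KO, against 0.243 and 0.259 in WT. Phyh, which starts the alpha-oxidation of phytanic acid and is itself a cargo of Pex7, had 97.0, 110 and 62.8 in KO, against 23.5 and 13.6 in WT (adjusted p = 0.00431). Catalase, Cat, which destroys the hydrogen peroxide of the oxidases, had 358, 426 and 310 in KO, against 159 and 154 in WT (adjusted p = 0.00871, a call lost without WT C1 and without WT SE). Gnpat, which opens plasmalogen synthesis, was the member that fell, at 56.3, 83.3 and 62.8 in KO, against 112 and 118 in WT (adjusted p = 0.0496), a call at the threshold that held in 2 of 18 alternatives. Of 3 fission genes shared with mitochondria, Dnm1l and Mff rose (66.7% called). Dnm1l, the dynamin that cuts both organelles, had 143, 133 and 147 in KO, against 75.0 and 86.6 in WT, but its sign turned with chromosome centring, and its 50 neighbours had a median log2 fold change of 0.95. Mff, its receptor, had 336.5, 336.0 and 260 in KO, against 194 and 136 in WT. Calls for Dnm1l and Mff were lost without KO C1, KO C2, WT C1 or WT SE, and with chromosome centring.

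Fatty acid uptake and activation went both ways, with 4 of 15 higher and 4 lower (53.3% called, beside 34.3% of all tested genes). The fatty acid carriers Fabp4 (408, 489 and 278 in KO, against 5.92 and 3.52 in WT) and Fabp5 (180, 204 and 120 in KO, against 22.5 and 19.2 in WT) rose. Acsl6, an acyl-CoA synthetase, fell to 0.282, 0.303 and 0.215 in KO, against 11.0 and 13.1 in WT. Cd36, a fatty acid receptor of the cell surface, had no WT read and was at least 114-fold higher in KO at a floor of 3 reads per WT library. In the carnitine shuttle, the carnitine transporter gene Slc22a5 (23.1, 29.0 and 27.7 in KO, against 8.88 and 8.39 in WT) and the peroxisomal octanoyltransferase gene Crot (75.9, 82.7 and 85.5 in KO, against 48.8 and 41.9 in WT) rose, 2 of 7, though that of Crot was lost without KO C1, KO C2, WT C1 or WT SE. Of 9 tested genes of ketone and branched-chain acyl-CoA breakdown, 3 rose and 0 fell (33.3% called, near the share of all tested genes). The isovaleryl-CoA dehydrogenase gene Ivd had 75.9, 79.1 and 76.6 in KO, against 22.0 and 23.1 in WT. The propionyl-CoA carboxylase gene Pccb had 52.5, 64.8 and 47.9 in KO, against 11.7 and 11.1 in WT. Its partner gene Pcca had 70.7, 61.7 and 53.1 in KO, against 37.5 and 33.2 in WT, a call lost without KO C1, KO C2, WT C1 or WT SE, without a variance trend and with chromosome centring.

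Regulators of these genes were split, with 3 of 10 higher and 1 lower. The share called, 40%, was near the 34.3% of all tested genes. Pparg, the nuclear receptor of fat cell formation, had 229, 431 and 144 in KO, against 10.8 and 4.45 in WT (log2 fold change 5.02, limma adjusted p = 9.58e-04). Ppard, a receptor linked to fatty acid oxidation in many tissues, was low and not called, at 1.08, 0.681 and 3.01 in KO, against 3.00 and 1.71 in WT. Ppargc1a, a coactivator of mitochondrial genes, had 2 reads in KO and 83 in WT and fell (adjusted p = 0.00333), while its relative Ppargc1b rose, at 4.51, 10.1 and 13.3 in KO, against 0.608 and 2.49 in WT (adjusted p = 0.0253), a call lost without KO C2 and without WT C1. Nrip1, a corepressor of nuclear receptors, had 39.6, 57.1 and 67.7 in KO, against 21.2 and 24.2 in WT (adjusted p = 0.0212), a call lost without KO C2, WT C1 or WT SE and with chromosome centring. Of 5 tested PPAR target genes, 4 rose (80% called). Pdk4, a kinase that turns glucose oxidation down, had 176, 133 and 230 in KO, against 12.0 and 12.4 in WT, and Ucp2, a carrier of the inner membrane, had 513, 561 and 384 in KO, against 11.3 and 4.351 in WT. Cidec, a lipid droplet protein, had no WT read and was at least 50.3-fold higher at that floor. Plin2, which coats lipid droplets in most cells, was not called, at 434, 791 and 306 in KO, against 537 and 356 in WT.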

How the data were processed

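Stranded mRNA libraries were read single-end at 75 bp, per the labels' protocols. The submitters' processing notes name STAR 2.5, featureCounts 1.5.2 and edgeR, and the sources used here give no genome build, annotation or strand setting. The deposited values are a signal that the authors made from gene counts by scaling each library. Whole reads were recovered for 100% of values (within 0.02 of a read). Column names gave the group of a library but no replicate number.

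Log2 of the deposited value plus 0.5 was tested with limma 3.58.1 (eBayes with a trend, group as the only term) over 12484 genes with at least 1 in at least 2 libraries, with Benjamini-Hochberg adjustment over all of them and a threshold of 0.05. This scale understates changes of low genes, and folds are ratios of group means. As count tests on the recovered reads, edgeR 4.0.16 called 2040 genes higher and 2039 lower, and DESeq2 1.42.0 called 2600 and 2236. Other alternatives were pseudocounts of 0.1 and 1, no filter, a filter at 5, quantile and median-of-ratios scaling, variance estimates without a trend or robust, each library left out, no SE libraries, the suffix as a block, and chromosome centring. Counting intervals and floors (3 reads per library) cover counting error only. Gene positions and exons are those of GENCODE M21 (GRCm38), matched by Ensembl identifier, and promoters those of RefSeq (GRCm38.p6). R 4.3.3 and Python 3.11.15 were used.

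The members and lists were chosen with earlier results of these data known. Values in every library are given, in each role group, for the 3 genes with the smallest p-value, the 2 with the highest mean and any without a read in 1 genotype, and, in other lists, for up to 3 called genes with the smallest p-value; further genes were named for their role or after their values were seen. Values of 5 genes of the set are not reported here or drawn, though counts over the set include them.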

Additional observations from a re-analysis of the deposited data

How the results depend on the processing

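No paired analysis was possible because the columns carry no replicate numbers and no label says that a shared suffix marks a pair. The suffix (C or SE) could still be used as a block. In that fit, 3530 of all genes were called higher in KO and 4038 lower, 32 and 4 of the peroxisomal and fatty acid oxidation genes, and 43 and 11 of the other pathway genes. That fit kept all 20 calls of the main test and added 16. Leaving out single libraries gave 1049 to 2332 higher and 594 to 2632 lower among all genes, 11 to 24 higher and 0 to 1 lower among the 59, and 17 to 33 higher and 0 to 6 lower among other pathway genes. Where 1 WT library remained, it was assumed to vary like the others. Without both SE libraries 3 of the 59 and 3 other pathway genes were called lower. With quantile normalization and with chromosome centring 0 of the 59 were called lower, and with a filter at 5, 3 other pathway genes. Chromosome centring turned Dnm1l to -0.0186 on the log2 scale. The cause was not tested in any of these. The other alternatives, with edgeR and DESeq2, moved no count by over 1.5 times, and 9 of the 20 calls held in every alternative that gave a value. No sign of a called gene among the 59 turned. Genes with few reads in WT (Ehhadh 7, Acaa1b 3, Acot4 1) have wide counting intervals, and depth limits their folds.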
